A study of Bos grunniens and Bos grunniens x Bos taurus with 6 samples.

Results

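Titin, encoded by TTN, was followed through full-length nanopore transcriptomes of longissimus dorsi, a muscle that runs along the back. The 6 libraries were 3 of yak (Bos grunniens) and 3 of cattle-yak, labelled Bos grunniens x Bos taurus, a hybrid of yak and cattle. No treatment, age, sex or batch was used to define the groups, and the labels do not tie the 3 samples of a group to separate animals. A p-value below therefore reflects the spread among these samples, part of which may be technical. The gene was taken by its identifier, ENSBGRG00000000896 (the main TTN gene below), which held 7205 of the 179856 transcripts counted. A transcript was described singly if it had at least 30 reads pooled over the 6 libraries, and 1319 of the 7205 did. These 1319 held 264072 of the gene's 308808 reads, and the other 5886 were counted in the gene only. Rows of other gene identifiers whose symbol was TTN were kept apart and numbered 3582, over 96 identifiers. The pooled reads were the measured value that chose the transcripts, and TTN itself was chosen with an earlier analysis of these data known.

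Titin is the giant elastic protein of striated muscle. A single molecule runs from the Z-disc, where thin filaments are anchored, through the extensible I-band and along the thick filament of the A-band to the M-band, where thick filaments are cross-linked. Its pre-mRNA is among the most heavily spliced in muscle, and splicing of the I-band exons sets how stiff the molecule is.

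The libraries held 2350851 to 2502603 counted reads in yak and 2366057 to 2769106 in cattle-yak. All 10 skeletal muscle markers were found, and their summed level was 239182 to 273231 CPM in yak and 176972 to 208259 CPM in cattle-yak. CPM here are read counts scaled to a common library size with TMM. Of those markers MYH2, ACTA1 and MB were called lower and DES was called higher. Of 7 heart markers 2 had a gene of that name, MYH6 and TNNT2, with a sum of 5.77 to 7.66 CPM in yak and 9.10 to 21.3 CPM in cattle-yak. TNNT2 was not tested, and MYH6 was called higher (edgeR adjusted p = 0.0452), but not in every fit that left out a library. The name MYH6 rests on 55.4% of the identifier's reads. Summed macrophage markers were 14.2 to 23.0 CPM in yak and 33.6 to 69.5 CPM in cattle-yak, and 5 of the 6 had a gene of that name. Only CTSS among them was tested. It was called higher (log2 fold change 1.44 ± 0.29, edgeR adjusted p = 0.0057), and its name rests on 53.4% of the identifier's reads. Fibroblast markers, with 6 of 6 named, summed to 434 to 549 CPM in yak and 226 to 433 CPM in cattle-yak, so the sums barely separated. The collagen genes COL1A2 and COL3A1 and the proteoglycan gene LUM were called lower, while DCN, with the most reads of the 6, overlapped (log2 fold change 0.06). Adipocyte markers, with 2 of 4 named, summed to 136 to 180 CPM in yak and 73.5 to 122 CPM in cattle-yak. Neither gene passed (edgeR adjusted p = 0.0668 for LPL and 0.36 for FABP4), and FABP4 overlapped. Endothelial sums were 24.9 to 31.1 and 29.3 to 60.3 CPM and smooth muscle sums 122 to 149 and 112 to 171 CPM, so both overlapped. The part of these differences in the titin results was not tested, and in bulk muscle fewer cells of a type and less RNA per cell cannot be told apart.

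The first comparison asked whether the muscles differ in the total level of titin RNA. The main TTN gene had 37988, 40501 and 33186 reads in yak 1, 2 and 3, and 65785, 75413 and 55935 reads in cattle-yak 1, 2 and 3. The lowest cattle-yak library lay above the highest yak library, and cattle-yak 2 was the highest of the 6. As a share of the library the gene rose from 1.54% ± 0.139 in yak to 2.66% ± 0.591 in cattle-yak (SD, n = 3 each). The level was 16496 ± 1404 CPM in yak and 25623 ± 4890 CPM in cattle-yak. This was 0.64 ± 0.17 on the log2 scale (SE), with an edgeR adjusted p of 0.0293 over all genes. Among all 7504 genes tested, 6.45% were called higher and 6.18% lower at the same threshold, an adjusted p under 0.05. By pooled reads, which are not corrected for length, TTN was rank 9 of the 31044 genes.

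The titin call rested on all libraries together. Leaving out any 1 library except cattle-yak 3 took the adjusted p past the threshold: it was 0.0837, 0.0822 and 0.132 without yak 1, 2 and 3, and 0.0630 and 0.0825 without cattle-yak 1 and 2 (edgeR). Without cattle-yak 3 it was 0.00675. The log2 fold change stayed positive throughout, between 0.51 and 0.76.

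**Figure D1:**
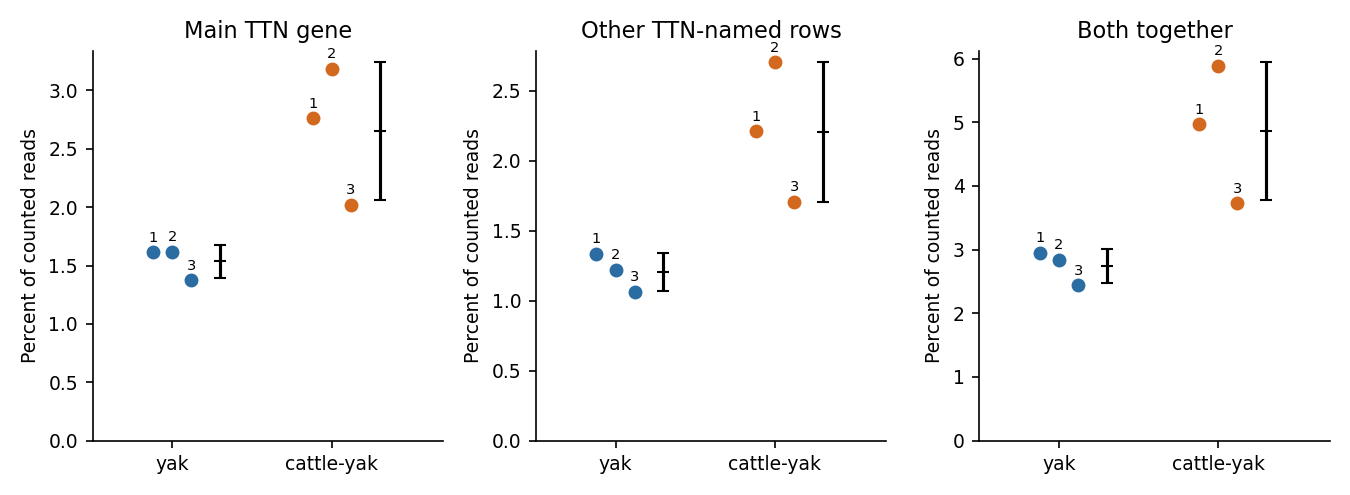
Percent of each library's counted reads in the main TTN gene, in TTN-named rows of other identifiers, and in both together. Points are libraries with their replicate number, and the bar beside them is the mean ± SD (n = 3). The groups do not overlap in any panel, and cattle-yak 3 is the lowest of its group in each.

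The reads of the main gene were spread over a very large number of assembled transcripts. No length or exon of them was given in the sources used here, so whether any spans the whole titin mRNA was not analysed. A transcript here is thus an assembled model and need not be a complete titin isoform. None of the 7205 carried a reference transcript identifier, and no gene of the table had more transcripts; outside TTN the most was 3973, in MYH2, a fast myosin heavy chain gene. The most abundant transcript held 2.34% of the gene's pooled reads, the first 10 held 15.0%, the first 100 held 45.2%, and 131 were needed to reach 50%. At the edge of the selection, the 25 transcripts with exactly 30 pooled reads had a median of 9 reads in yak (0 to 22) and 21 in cattle-yak (8 to 30), and the 24 transcripts with 29 reads had medians of 10 (1 to 26) and 19 (3 to 28).

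Each transcript carried a description, the best protein match the authors recorded, with the species of that protein. Titin isoform X12 of Bos indicus x Bos taurus was the match of 1844 transcripts with 41.4% of the reads, and predicted titin of Bos mutus, the wild yak, of 2001 transcripts with 23.6%. Titin of Bison bison bison held 8.81%, a hypothetical protein of Ovis aries 4.58% and titin isoform X47 of Bubalus bubalis 4.0%. An uncharacterized protein of a macaque was the match for 2.83% of the reads, and 2.65% had no description. The symbol was written TTN for 4065 transcripts, Ttn for 1561 and was missing for 1570. A description names the closest protein in a database, so it is a label of the transcript and not its species of origin.

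The 10 transcripts with most reads were described first. TALONT001744459, matched to the Ovis aries hypothetical protein, led with 903, 1120 and 879 reads in yak against 1370, 1698 and 1265 in cattle-yak. Its groups did not overlap in reads but did in TMM-scaled CPM, and its log2 fold change of 0.42 ± 0.18 did not pass (edgeR adjusted p = 0.138). TALONT001504843, matched to isoform X12, had 841, 1343 and 969 reads in yak against 1521, 931 and 945 in cattle-yak, and the groups overlapped (log2 fold change -0.06 ± 0.23). So neither of the transcripts with most reads was called.

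The largest change among these 10 was in TALONT001556480, also matched to isoform X12. It had 545, 616 and 471 reads in yak against 1347, 1495 and 1474 reads in cattle-yak. Every cattle-yak library held more than any yak library, and the log2 fold change was 1.23 ± 0.17 (edgeR adjusted p = 0.000258). TALONT001712639, matched to isoform X47 of Bubalus bubalis, rose from 371, 348 and 352 reads to 685, 1098 and 782 reads, a log2 fold change of 1.09 ± 0.21. TALONT001556486 rose by 0.91 ± 0.18 and kept its groups apart, as the preceding pair did. These 3 calls held in every fit that left out a library.

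Another 3 of the 10 rose by less firm calls. TALONT001556484 rose by 0.64 ± 0.18 (edgeR adjusted p = 0.0233), with p of 0.0746, 0.0976 and 0.124 without cattle-yak 2, yak 2 and yak 3. TALONT001556443 rose by 0.71 ± 0.17, with an adjusted p of 0.0592 without yak 3. TALONT001689604, matched to bison titin, rose by 0.92 ± 0.26, with an adjusted p between 0.0503 and 0.0981 without cattle-yak 1, cattle-yak 2, yak 2 or yak 3. TALONT001504847 (0.32 ± 0.16) and TALONT001504844 (0.55 ± 0.19) did not pass.

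Over all described transcripts the shift was mostly upward. Of the 1319, the 3 cattle-yak libraries all lay above the 3 yak libraries in TMM-scaled CPM for 483 (36.6%), all below for 71 (5.38%), and overlapped for 765. Among 23485 assembled transcripts of other genes with at least 30 pooled reads, 16.2% lay all above and 15% all below. The low count filter let 750 of the 1319 be tested and left out 569. Of the 750, 212 were called higher (28.3%), 22 lower (2.93%) and 516 did not pass, while of all 15805 tested transcripts 9.63% were called higher and 8.86% lower. The median of their log2 fold changes was 0.67, and 0.0037 over all tested transcripts, and 610 of the 750 lay above 0. The 10th and 90th percentiles were -0.30 and 1.54. The 750 belong to 1 gene measured in the same 6 libraries, so these counts are not independent of the gene's higher total. The 212 include 14 transcripts without a yak read. Against the shift of 0.66 common to the gene's transcripts, 37 differed upward and 53 downward (edgeR diffSpliceDGE, adjusted p under 0.05).

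How many transcripts passed depended on single libraries. The count called higher was 114 without cattle-yak 2, 136 without yak 2 and 123 without yak 3, and 97 of the 212 were called in all 6 fits that left out a library. Of the 22 called lower, 14 were called in all 6.

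**Figure D2:**
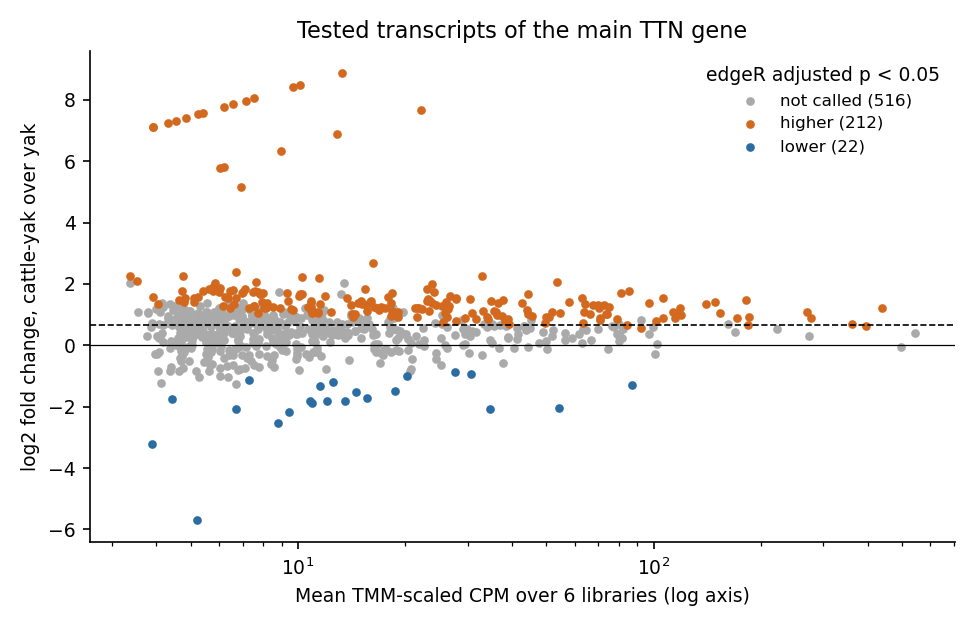
Log2 fold change of each of the 750 tested transcripts of the main TTN gene against its mean TMM-scaled CPM on a log axis. Colours give the edgeR call, the solid line is no change and the dashed line is the shift of 0.66 common to the gene's transcripts; the points far above the rest, at fitted values over 5, had from 0 to 2 yak reads, and there the fitted size depends on the prior count.

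A small set of titin transcripts was read in cattle-yak and not in yak. Of the 1319, 27 had no yak read (2.05%), while none had no cattle-yak read. Among assembled transcripts of other genes with at least 30 pooled reads, 72 of 23485 (0.307%) had no yak read and 3 (0.0128%) had no cattle-yak read. Each yak library held at least 33186 reads of the gene. The gene's mean was 37225 reads per yak library against 65711 per cattle-yak library. Under a threshold on pooled reads, this imbalance by itself makes transcripts without yak reads likelier than transcripts without cattle-yak reads. The other genes were not matched for the imbalance, and its part in the 27 was not tested. Of the 27, 14 passed the low count filter, and these 14 were called higher, with and without each library. With 0 reads in 1 group and 30 or more in the other, that count follows from how the set was taken.

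The member with most reads was TALONT001637479, matched to isoform X12, with 47, 92 and 45 reads in cattle-yak 1, 2 and 3. With 3 reads put in for all yak libraries together, it was 59.3-fold higher per library read. The 3 is a set value and not a limit that 0 reads prove. These transcripts were picked for their 0 yak reads, so such folds are selected extremes. TALONT001599250 had 31, 40 and 73 reads and TALONT001599364 had 35, 47 and 54. Both were matched to Bos mutus titin and were 46.4-fold and 43.8-fold higher by the same measure. All 3 had reads in every cattle-yak library. TALONT001599561 (36, 38 and 31 reads), TALONT001637468 (22, 47 and 30), TALONT001586759 (30, 31 and 31) and TALONT001586752 (22, 41 and 23) followed. By this measure they were 33.8-, 31.9-, 29.6- and 27.7-fold higher. TALONT001599204 had 1 yak read, in yak 3, against 91, 113 and 106 in cattle-yak, and so missed the set by a single read.

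The cattle-yak libraries did not all hold the same members of the set. TALONT001599470 had 28 and 79 reads in cattle-yak 1 and 2 and none in cattle-yak 3. TALONT001599317 (16 and 31), TALONT001599389 (17 and 25) and TALONT001599679 (20 and 25) were likewise at 0 in cattle-yak 3. The same library held the highest counts of TALONT001599250 and TALONT001599364. None of the 27 was at 0 in cattle-yak 1 or cattle-yak 2. No transcript of the 1319 had 10 or more reads in 1 library and none in the other 5.

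Transcripts that fell went against the gene's total. TALONT001636627, matched to isoform X12, had 15, 28 and 21 reads in yak against 1, 0 and 0 in cattle-yak, and showed the most negative fitted log2 fold change, -5.70 ± 0.71 (edgeR adjusted p = 0.000143), whose size depends on the prior count since a single cattle-yak read stands behind it. TALONT001599278, matched to Bos mutus titin, had 153, 257 and 133 reads in yak against 45, 48 and 56 in cattle-yak. Even the lowest yak library held more reads than the highest cattle-yak library, and the log2 fold change was -2.03 ± 0.26. TALONT001599322 fell in the same way, from 124, 131 and 94 reads to 33, 31 and 28 (-2.09 ± 0.24).

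The remaining named transcripts that fell were also in this number range. TALONT001599630 went from 11, 19 and 14 reads to 1, 2 and 2 (-3.21 ± 0.56). TALONT001599378 fell by 2.18 ± 0.41, TALONT001599809 by 2.08 ± 0.51 and TALONT001599273 by 1.89 ± 0.40 on the log2 scale. TALONT001599344 had 32, 49 and 13 reads in yak against 2, 4 and 12 in cattle-yak, and its log2 fold change of -2.54 ± 0.60 did not pass without cattle-yak 2 (edgeR adjusted p = 0.0830).

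Many of the strongest gains and losses carried neighbouring identifier numbers. What the numbering of assembled transcripts follows is not stated in the labels, and the runs below were picked after their values were seen, so they are described without a test. The 48 transcripts numbered TALONT001599000 to TALONT001599999 had 724, 956 and 589 reads in yak against 689, 861 and 768 in cattle-yak. The read totals of the run overlapped between the groups, but as a share of the gene, whose total was higher, the run was lower in all 3 cattle-yak libraries, at 1.19% ± 0.168 against 2.01% ± 0.307 in yak. The transcripts behind the totals also differed. In yak, 87.3% ± 1.35 of the run's reads lay in 12 transcripts called lower in cattle-yak, and these held 24.8% ± 3.43 of the run in cattle-yak. Another 13 transcripts with at most 3 yak reads each and at least 30 pooled reads held 62.2% ± 4.24 of the run in cattle-yak and 0.318% ± 0.342 in yak (SD, n = 3 each). Both sets were chosen by the difference between the groups, so their shares of the run describe that choice.

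**Figure D3:**
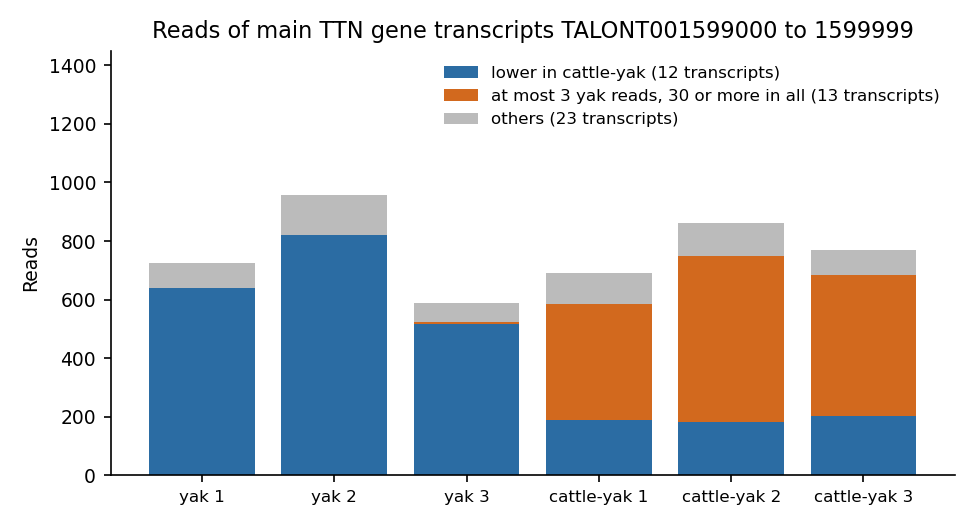
Reads per library in the run of 48 transcripts, split into those called lower in cattle-yak, those with at most 3 yak reads and at least 30 pooled reads, and the others, 18 of which had fewer than 30 pooled reads. The bars hold 589 to 956 reads in yak and 689 to 861 in cattle-yak, from a gene with more reads in cattle-yak, and their make-up differs.

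The 113 transcripts of the run TALONT001637000 to TALONT001637999 were split in a like way. The run had 1142, 1078 and 1174 reads in yak against 756, 1471 and 1057 in cattle-yak. As a share of the gene the run stood at 3.07% ± 0.441 in yak against 1.66% ± 0.446 in cattle-yak, without overlap. The 5 transcripts called lower held 40.8% ± 5.62 of it in yak and 21.7% ± 4.41 in cattle-yak, and 9 transcripts with at most 3 yak reads and at least 30 pooled reads held 0.203% ± 0.221 and 21.2% ± 3.99. Together these 2 runs held 59 of the 1319 described transcripts, 17 of the 22 called lower and 14 of the 212 called higher. They also held 14 of the 27 without a yak read. That last count follows from the choice, because the runs taken were those with most such transcripts.

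Summed over whole runs that share all but the last 3 digits, the share of titin reads moved in both directions. Of 136 runs with at least 100 pooled reads, 7 had at least 2 times the share of the gene's reads in cattle-yak, and 6 had 0.5 times or less. Of these 13 runs, 10 lay between the runs 1617 and 1636 (the digits after TALONT00), a stretch with 12 runs of at least 100 reads. The stretch was drawn around the largest cluster of these same 13 runs, so that most of them lie in it follows from that choice. All transcripts numbered within the stretch, those of smaller runs included, held 1.77%, 1.73% and 1.54% of the gene's reads in yak libraries 1, 2 and 3 and 1.42%, 1.59% and 1.5% in the cattle-yak ones. The share of the whole stretch thus overlapped between the groups, while runs inside it went apart. Run 1636 fell from 264, 256 and 209 reads to 89, 143 and 103. Run 1623 rose from 40, 31 and 22 reads to 250, 282 and 206. Run 1621 had 0, 2 and 0 reads in yak against 66, 58 and 45 in cattle-yak, and run 1618 had 96, 96 and 62 against 16, 23 and 29. In all 4 of these runs the groups did not overlap, and 1636 and 1618 fell in reads while the gene's total was higher. These 4 were taken from the 13 runs with large changes. Over all 136 runs, the shares did not overlap for 33 that were higher and 21 that were lower in cattle-yak.

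**Figure D4:**
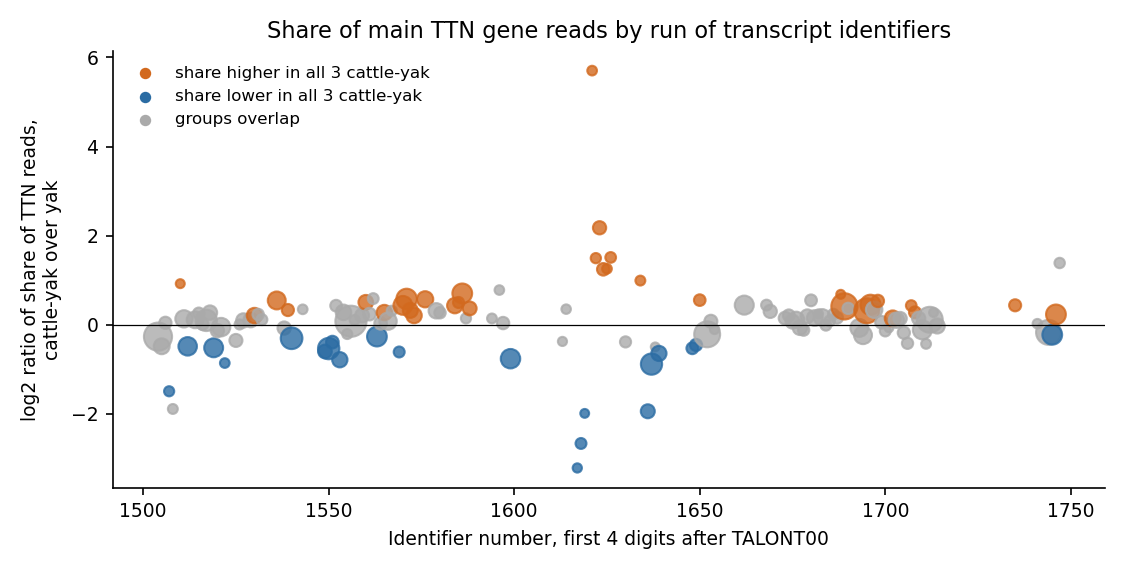
Log2 ratio of mean shares of main TTN gene reads, cattle-yak over yak, for the 136 runs of transcript identifiers with at least 100 pooled reads; point area grows with the reads of the run. Colours show where the 3 libraries of a group do not overlap with the other group. Runs between 1617 and 1636, a stretch drawn around runs far from 0, lie furthest from 0 in both directions.

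Whether the transcripts moved in step with their gene was tested by comparing each log2 fold change with the one common to the gene's tested transcripts. The shift common to the gene's transcripts was 0.66 on the log2 scale, and 90 of the 750 tested transcripts (12%) differed from it, 37 higher and 53 lower (edgeR diffSpliceDGE, adjusted p under 0.05). Of the tested transcripts of other genes, 4.14% differed upward from their gene and 2.08% downward. The gene as a whole was called (adjusted p = 1.28e-232), as were 14.9% of 1965 genes. The size of that p has no meaning of its own, because 750 transcripts measured in the same 6 libraries enter as if they were independent.

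The share of the gene taken by its most abundant transcript, TALONT001744459, was 2.38%, 2.77% and 2.65% in yak against 2.08%, 2.25% and 2.26% in cattle-yak. It was lower in all 3 cattle-yak libraries, with means of 2.60% ± 0.199 and 2.20% ± 0.101 (two-sided exact permutation p = 0.1, the smallest that 3 against 3 can give; adjusted over the 4 shares and numbers tested in this way, 0.133). The 5 most abundant transcripts together held 10.1% ± 0.558 and 9.48% ± 0.922, and there the groups overlapped.

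Transcripts matched to a Bos taurus protein took 4.45%, 4.82% and 5.06% of the gene's reads in yak against 3.47%, 3.0% and 3.6% in cattle-yak. All yak libraries were above all cattle-yak libraries, with means of 4.78% ± 0.309 and 3.36% ± 0.315 (exact permutation p = 0.1, adjusted 0.133). The share fell mainly in 60 transcripts matched to 1 Bos taurus titin record, DAA32835.1, from 1.63% ± 0.288 to 0.756% ± 0.166. With Bos indicus x Bos taurus matches added, the shares were 46.2% ± 0.373 and 45.2% ± 0.991 and overlapped. Of the other species labels, the groups did not overlap for Bison bison bison (8.51% ± 0.0983 in yak and 8.96% ± 0.160 in cattle-yak), Cervus elaphus (1.14% ± 0.107 and 1.59% ± 0.125) and Ovis aries (6.60% ± 0.0666 and 5.89% ± 0.240), so that 2 were higher and 1 lower in cattle-yak. The groups overlapped for Bubalus bubalis, Macaca nemestrina, Muntiacus reevesi, Sousa chinensis, Cervus hanglu yarkandensis and Galemys pyrenaicus. All these shares are parts of 1 total, so they do not vary independently. The shares of the 2 main descriptions overlapped: isoform X12 held 41.1% ± 0.108 and 41.6% ± 0.818, and Bos mutus titin 23.5% ± 0.649 and 23.7% ± 0.760.

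The number of titin transcripts seen depended on the reads. At least 1 read was found for 3985, 4114 and 3751 of them in yak against 5030, 5156 and 4688 in cattle-yak. At an equal 33186 titin reads, 3816, 3871 and 3751 were expected in yak against 4056, 4039 and 3973 in cattle-yak. The groups did not overlap, and the mean went from 3813 ± 60.2 to 4023 ± 43.9 (exact permutation p = 0.1, adjusted 0.133). Equal reads do not correct for which transcripts were assembled and counted at all. None of the gene's transcripts had only 1 pooled read, and more of its reads were from cattle-yak. The part of this in the numbers was not tested. At 500 reads, where the abundant transcripts decide the number, the order of the means turned, with 324 ± 3.53 in yak and 321 ± 4.04 in cattle-yak.

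Rows named TTN under other identifiers were also higher in cattle-yak. They held 31375, 30572 and 25692 reads in yak against 52641, 63937 and 47268 in cattle-yak, 1.21% ± 0.135 and 2.21% ± 0.498 of the library. As with the main gene the groups did not overlap and cattle-yak 2 was highest. With the main gene they made up 2.74% ± 0.268 of all counted reads in yak and 4.86% ± 1.09 in cattle-yak. They made up 44.0% ± 1.14 of all TTN reads in yak against 45.4% ± 0.804 in cattle-yak, and the groups overlapped (exact permutation p = 0.2, adjusted 0.2). Whether these identifiers are pieces of 1 gene or copies was not analysed here, and reads could be split between them.

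Of the 96 identifiers, 87 had 1 row named TTN, 33 had at least 30 reads and 25 were tested. Called higher were 14 and called lower 0 (edgeR; background 6.45% and 6.18% of genes). At an unadjusted p under 0.05 the count lower was also 0, as it was by DESeq2 and by limma-voom after adjustment. Of the 25, 24 had a positive log2 fold change, with a median of 0.80. Of the 14, TALONG000143200 had 14628 reads but only 2 of them in a row named TTN, so 13 rest on TTN reads; its own call was lost without cattle-yak 2, yak 2 or yak 3 (edgeR adjusted p = 0.0731, 0.0999 and 0.103). The number called was 7 without cattle-yak 2, 7 without yak 2 and 4 without yak 3. The 4 called in every fit that left out a library were TALONG000143201, TALONG000143210, TALONG000143212 and TALONG000146285.

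A pair of identifiers, ENSBGRG00000000967 and TALONG000143196, held 85.5% of these reads. ENSBGRG00000000967 had 20760, 21039 and 17276 reads in yak against 32643, 39111 and 30303 in cattle-yak, without overlap. It rose from 8727 ± 818 to 13253 ± 2310 CPM, by 0.60 ± 0.17 on the log2 scale (edgeR adjusted p = 0.0331), and did not pass without any 1 library except cattle-yak 3 (0.0580 to 0.156). TALONG000143196 rose from 2705 ± 298 to 4954 ± 1167 CPM, by 0.87 ± 0.19 (adjusted p = 0.00857; 0.0516 without yak 3).

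ENSBGRG00000000967 differed from the main gene in being led by few transcripts. TALONT001746427, matched to the Ovis aries hypothetical protein, held 47.8% of its reads and TALONT001744521, matched to Ovis aries titin isoform X4, held 24.7%. TALONT001746427 had 9430, 8790 and 7383 reads in yak against 16352, 19752 and 15247 in cattle-yak, and rose by 0.84 ± 0.17 (edgeR adjusted p = 0.00453). TALONT001744521 had 5878, 6328 and 5169 reads against 7266, 8257 and 6833, and its 0.20 ± 0.16 did not pass. The share of the first was 43.3% ± 1.89 in yak and 50.3% ± 0.205 in cattle-yak, and that of the second 29.4% ± 0.976 and 22.0% ± 0.760. The groups did not overlap for either share, but neither transcript, nor the gene as a whole, passed the usage test (diffSpliceDGE adjusted p = 0.868, 0.444 and 0.0519). TALONT001712628 rose by 0.80 ± 0.18, and TALONT001744522 had 0.38 ± 0.19 and did not pass. Usage was called in TALONG000143196 (127 transcripts, diffSpliceDGE adjusted p = 5.62e-12) and in ENSBGRG00000000936 (27 transcripts, 0.0257). As for the main gene, the size of these p has no meaning of its own.

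The other identifiers with most reads moved by different amounts. TALONG000143201 had 1167, 907 and 842 reads in yak against 3303, 3906 and 2879 in cattle-yak, with no overlap, and rose by 1.60 ± 0.19 on the log2 scale (edgeR adjusted p = 0.000193). TALONG000143211 had 677, 652 and 633 against 889, 1123 and 816, and its 0.34 ± 0.17 did not pass. ENSBGRG00000000936 rose by 0.75 ± 0.20, TALONG000143955 by 0.80 ± 0.19 and TALONG000146282 by 0.75 ± 0.21, each with a call lost without yak 2 or yak 3 (adjusted p up to 0.158). Those 3 calls were also lost without cattle-yak 2 (0.0784, 0.0542 and 0.0912), the first and last without cattle-yak 1 (0.0501 and 0.0759), and the first without yak 1 (0.0661).

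Smaller identifiers were called too. TALONG000146285, known from the earlier analysis, had 1, 1 and 3 reads in yak against 55, 93 and 50 in cattle-yak, a fitted log2 fold change of 5.03 ± 0.50. TALONG000143210 rose by 1.09 ± 0.18 and TALONG000143212 by 1.25 ± 0.21. TALONG000143213 (1.15 ± 0.28), TALONG000145052 (1.86 ± 0.42), TALONG000146214 (1.51 ± 0.35) and TALONG000146294 (1.95 ± 0.50) rose as well, and each lost its call without yak 3 (edgeR adjusted p = 0.0754, 0.0517, 0.0577 and 0.0868). TALONG000143213 and TALONG000146294 also lost it without yak 2 (0.0727 and 0.0542) or cattle-yak 2 (0.0532 and 0.106).

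Genes of proteins that bind or sit beside titin were listed by zone of the sarcomere. Of 33 listed, 30 had a gene of that name and 28 were tested. Called higher were 8 and called lower 4 (6.45% and 6.18% of all genes were), with a median of 0.11 on the log2 scale, where all genes had 0.02. No gene took the names NEBL, CAPN3 and TRIM55, and PALLD and OBSL1 were not tested.

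At the Z-disc, TCAP, the cap that joins the ends of titin molecules, rose from 3516 ± 39.2 to 6620 ± 453 CPM, by 0.91 ± 0.15 on the log2 scale (edgeR adjusted p = 0.00157). Filamin C, encoded by FLNC, rose by 1.72 ± 0.19. MYOZ2, a calcineurin-binding Z-disc protein, rose by 0.80 ± 0.19, but did not pass without yak 1 (0.0604) or yak 2 (0.0774). Its relative MYOZ3 fell from 224 ± 0.605 to 62.9 ± 28.8 CPM (-1.83 ± 0.30). Nebulin, the ruler of the thin filament encoded by NEB and the most abundant gene of the list, had 9922, 9214 and 9168 CPM in yak against 10850, 11832 and 8474 in cattle-yak, which overlapped (0.14 ± 0.16, not passed). LDB3, a PDZ-LIM protein, had 0.03 ± 0.18 and did not pass.

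Among proteins of the I-band, ANKRD2, a stretch-responsive ankyrin repeat protein, went from 52.8, 44.1 and 66.2 CPM to 1382, 856 and 1178 CPM, 4.39 ± 0.23 on the log2 scale. CRYAB, a small heat shock protein that binds titin's spring region, rose from 844 ± 84.2 to 2518 ± 627 CPM (1.58 ± 0.19). FHL1, a LIM protein of the I-band, fell from 5344 ± 95.0 to 2395 ± 185 CPM (-1.16 ± 0.15). In the A-band MYBPC1, the slow myosin-binding protein C, fell by 1.10 ± 0.15, and the fast MYBPC2 had -0.38 ± 0.17 and did not pass.

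At the M-band, TRIM63 (MuRF1), a ubiquitin ligase that binds titin near its kinase domain, rose from 115 ± 47.1 to 396 ± 70.6 CPM (1.78 ± 0.29). TRIM54 (MuRF3) rose by 0.72 ± 0.16, with an adjusted p of 0.0738 without yak 2 (edgeR). MYOM3, a myomesin, rose by 1.55 ± 0.41 from 13.5 ± 6.69 CPM, with p of 0.113, 0.138, 0.0542 and 0.0663 without yak 1, yak 2, cattle-yak 1 and cattle-yak 2. SMYD2, a methyltransferase reported to bind titin's I-band region in complex with a chaperone, fell by 0.91 ± 0.17. The 8 that rose belong to the Z-disc, I-band and M-band groups.

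**Figure D5:**
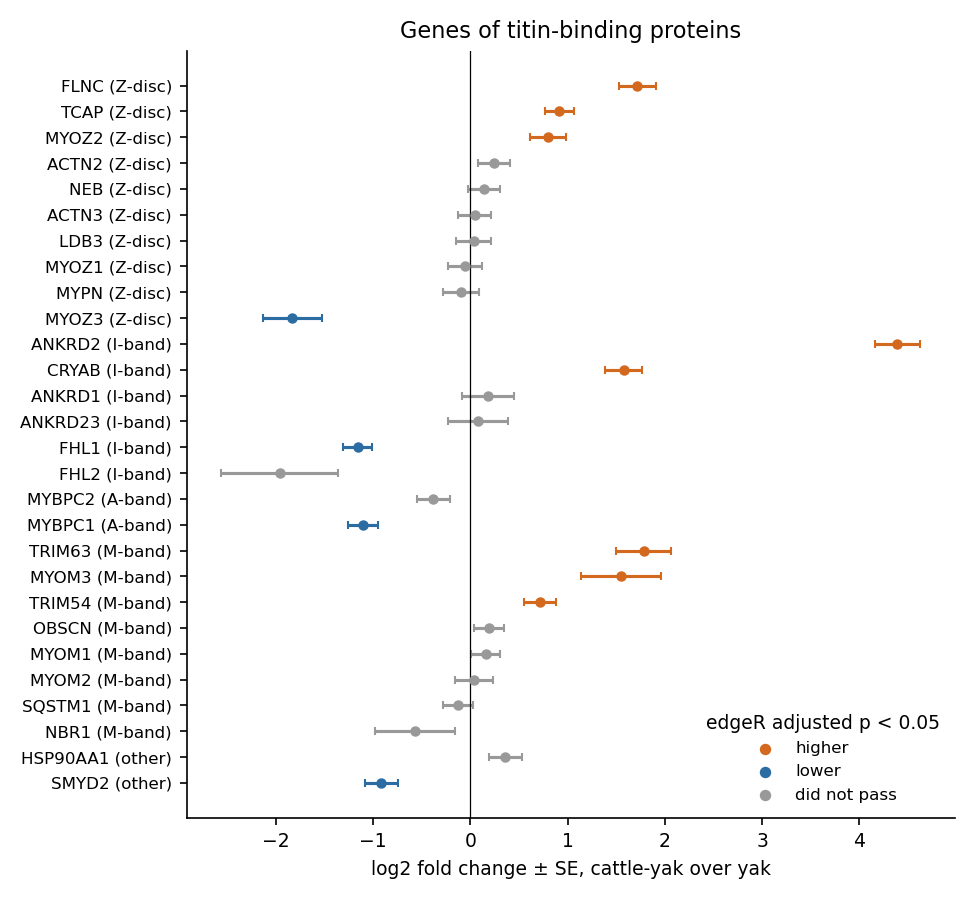
Log2 fold change ± SE of the 28 tested genes of titin-binding and neighbouring proteins, by zone, coloured by the edgeR call. The range runs from -1.96 (FHL2, not passed) to 4.39 (ANKRD2), with points on both sides of 0 in each zone but the A-band, whose 2 genes lie below 0.

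Of 15 listed factors that bear on the splicing of titin and other muscle transcripts, 14 had a gene of that name and 10 were tested, with 2 called higher and 2 lower (6.45% and 6.18% over all genes; median 0.08). RBM20, the best known repressor of titin exons, had 52.8, 98.3 and 48.2 CPM in yak and 15.8, 22.1 and 34.5 CPM in cattle-yak. The groups did not overlap, and it fell by 1.45 ± 0.34 on the log2 scale (edgeR adjusted p = 0.0221; 0.109 without cattle-yak 2). RBFOX2, a muscle splicing factor, fell from 54.5 ± 6.36 to 22.4 ± 4.69 CPM (-1.28 ± 0.21), and its name rests on 57.2% of the identifier's reads. QKI, an RNA-binding regulator of muscle splicing, rose from 17.7 ± 3.04 to 52.2 ± 9.32 CPM (1.55 ± 0.22), and its name rests on 40.5% of the identifier's reads. CELF2, another splicing regulator, rose from 2.82 ± 0.947 to 7.72 ± 2.23 CPM (1.44 ± 0.43, adjusted p = 0.0415), and did not pass without yak 1, 2 or 3 or cattle-yak 1 or 3 (0.0726 to 0.157). The name CELF2 rests on 51.9% of the identifier's reads. MBNL1 (-0.16 ± 0.18), MBNL2 (0.08 ± 0.19) and HNRNPC (-0.12 ± 0.21), the most abundant of the others, did not pass.

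Other very long muscle genes went both ways. Of 24 listed, TTN included, 21 had a gene of that name and 20 were tested, with 4 called higher, TTN among them, and 2 lower (6.45% and 6.18% over all genes; median 0.18). Beside TTN and FLNC, XIRP2, an actin-binding protein of the intercalated disc and costamere, rose by 0.92 ± 0.24 and MACF1, a cytoskeletal crosslinker, by 1.47 ± 0.27. SYNE1, a nuclear envelope spectrin-repeat protein, fell by 1.07 ± 0.28, and MYH2 fell from 26780 ± 2273 to 16974 ± 1180 CPM (-0.66 ± 0.15). The name MYH2 rests on 53.8% of the identifier's reads. Calls were lost for XIRP2 without yak 1, yak 2 and cattle-yak 1 (edgeR adjusted p = 0.0916, 0.102 and 0.0632), for SYNE1 without yak 1, cattle-yak 1 and cattle-yak 2 (0.122, 0.0630 and 0.0566), and for MYH2 without yak 2 (0.0697). MYH7, the slow myosin heavy chain gene (0.11 ± 0.18), and MYH1, a fast one (1.43 ± 0.43), did not pass. MYH1 did pass without yak 3 (2.08, edgeR adjusted p = 0.000113), with a plain in place of a robust dispersion fit (0.0189) and with every low gene kept (0.0425).

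The genes whose level followed the main TTN gene most closely over the 6 libraries were ranked among 4531 genes with a mean of at least 10 CPM. BCCIP came first (Pearson r = 0.998), with 96.7, 99.6 and 93.2 CPM in yak and 120, 129 and 108 CPM in cattle-yak, though its log2 fold change of 0.30 ± 0.16 did not pass. The next were the TTN-named ENSBGRG00000000936 (r = 0.995) and ENSBGRG00000000967 (r = 0.993), then TALONG000086185 and TALONG000043209 without a symbol (both 0.988). The 6 points form 2 groups and share their libraries, so these r describe likeness only.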

How the data were processed

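Total RNA of 6 longissimus dorsi samples was made into nanopore cDNA-PCR libraries, per the labels' protocols. Tools named in the submitters' processing notes were GSNAP, minimap2 and fastp, with no role stated; genome build and counter: not given in the sources used here. Per the files, the deposited values were read counts of each transcript, as whole numbers, and CPM that the authors scaled to the library total, equal to the counts over that total within 0.005. Of the lines, 132 held no values, and 61 transcripts without a gene identifier (at most 0.0025% of counts) stayed out of the gene counts.

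Counts were summed by gene. Tests used the quasi-likelihood method of edgeR 4.0.16 (R 4.3.3) after filterByExpr and TMM, with robust dispersion, Benjamini-Hochberg adjusted over all features, threshold 0.05. Usage was tested with diffSpliceDGE, whose F test made somewhat more false calls than its nominal rate on simulated data. The SE is the log2 fold change over the square root of F. Shares were compared with exact permutation tests. Expected numbers at equal reads are hypergeometric (scipy 1.17.1). A gene took the symbol holding at least 50% of its symbol-bearing reads and 2% of all; MYH7 and ACTA1 were named from descriptions. Alternatives were DESeq2 1.42.0, limma-voom (limma 3.58.1), other scalings and filters, and fits without each library. The reads are PCR copies without molecular tags, so a fold with 3 reads put in for 0 reflects counting error alone.

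Members, lists and rules were chosen with earlier results of these data known. Named were the main gene, the 10 transcripts with most reads, the 8 largest called changes per direction with groups not overlapping, the 8 other identifiers with most reads and every called one, called list members with up to 3 others per list, and the 5 genes most like TTN.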

Additional observations from a re-analysis of the deposited data

How the results depend on the processing

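With 3 libraries a group, precision is limited for the many transcripts with few reads. For the main TTN gene the log2 fold change was positive under every alternative run: 0.51 without a low count filter, where the adjusted p was 0.0520, and 0.51 to 0.76 when a library was left out. Scaling by library size alone moved the median of all genes from 0.02 to 0.18 and the share of calls that were higher from 51.1% to 69.5% (genes) and from 52.1% to 66.1% (transcripts); TTN was then at 0.80. The transcripts called higher numbered 114 to 271 without 1 library, and those called lower 19 to 24; with no low count filter 48 were called lower. The other identifiers called higher numbered 4 to 15 without 1 library, and none was called lower in any fit. DESeq2 called 1 splicing factor higher and scaling by library size 1 long gene lower. Without 1 library the partner list had 5 to 8 higher and 4 to 5 lower, the splicing list 1 to 2 and 1 to 2, and the long gene list 2 to 4 and 1 to 2. TTN reads outside the main gene differed by 8344 when given as TMM-scaled CPM, a change of unit, and by 0.943 to 2.05 percentage points without 1 library. The share of the most abundant transcript differed by -0.51 to -0.31 points without 1 library and that of the 5 most abundant by -0.63. The Bos taurus share differed by -1.58 to -1.24 points without 1 library and by -1.02 with Bos indicus x Bos taurus added, an alternative chosen after seeing the data. The expected number of transcripts differed by 179 to 239 without 1 library and by -3.51 at 500 reads, where the direction turned; the cause was not tested. Of 56 called genes and transcripts named, 22 lost the call under at least 1 alternative and none changed direction. The fit with the replicate number as a block gave 0.62 for TTN (edgeR adjusted p = 0.0195). It called 182 and 20 transcripts higher and lower, and 14 other identifiers. That fit also took MYH1 past the threshold (1.60, adjusted p = 0.0031) and MYOM3 out of it (1.51, 0.0716). Same-numbered libraries did not vary together (correlations -0.04, -0.02 and 0.02). These correlations cannot exclude that the samples were paired. The planned fits on reference transcripts only and on transcripts of at least 5% gave no value: the main gene has no reference transcript, and none of its transcripts reaches 5% of its counts.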
